A study of Mus musculus with 8 samples.

Results

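The data described here are the response to induced RasV12, an activated form of the small GTPase Ras, in ASZ001 cells in which an shRNA lowers Tgfbr1, the gene of the TGF-beta type I receptor. ASZ001 is a mouse basal cell carcinoma line, and the series title speaks of a change from the basal to the squamous type of carcinoma. The members are all genes of the count table in 4 of the 8 RNA-seq libraries: 2 knockdown libraries treated with Dox and 4OHT (doxycycline and 4-hydroxytamoxifen), whose genotype label names both the knockdown and RasV12, and 2 knockdown libraries treated with DMSO, whose label names the knockdown alone. They are called RasV12 knockdown cells and DMSO knockdown cells below. The remaining 4 libraries, 2 with Dox and 4OHT labelled RasV12 and 2 with DMSO labelled control, come from cells with a non-silencing shRNA (NS cells) and serve for setting the response of knockdown cells beside that of NS cells. All 8 libraries are of 1 line. No library had Dox and 4OHT without RasV12, so the drugs and Ras cannot be told apart, and the labels name RasV12 for no DMSO library. The labels and design text do not give the number of shRNA sequences or clones, the way RasV12 was delivered, the doses or the times. They also do not say whether replicates were grown separately, so p-values measure the spread between these libraries, which may be technical. Of the 24907 gene symbols, 12538 were tested.

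Ras in its active, GTP-bound form engages RAF kinases, which start the MEK and ERK phosphorylation cascade. ERK induces ETS and AP-1 transcription factors and also its own brakes, the Sprouty proteins and the dual-specificity phosphatases. TGF-beta binds a type II receptor that phosphorylates the type I receptor encoded by Tgfbr1, which activates SMAD2 and SMAD3. In epithelia this pathway restrains proliferation through CDK inhibitors, and in carcinomas with active Ras it can also accompany loss of epithelial traits.

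The 4 knockdown libraries held 12874759 to 15542242 counts. Levels are given in CPM, counts scaled to a common library size with TMM factors. Replicates differed by more than sampling noise, with a chi-square of 2.68 per degree of freedom between the RasV12 knockdown libraries and 8.29 between the DMSO knockdown libraries. Rn45s, a gene of ribosomal RNA, held 2.49% and 2.57% of counts in RasV12 knockdown cells, against 0.387% and 1.36% in DMSO knockdown cells. With it left out, 4595 genes passed the test of RasV12 against DMSO, and 4531 with it. Tgfbr1 itself had 8.86 and 9.37 CPM in RasV12 knockdown cells, against 10.2 and 8.08 CPM in DMSO knockdown cells, where NS cells had 104 and 91.6 CPM with RasV12 and 77.03 and 80.4 CPM with DMSO. All 4 knockdown libraries thus lay below all 4 NS libraries, and the knockdown groups overlapped (log2 change with RasV12 0.00 ± 0.14 (SE), edgeR adjusted p = 0.99). Hras had 53.3 and 52.3 CPM in RasV12 knockdown cells, against 57.9 and 58.6 CPM in DMSO knockdown cells. The decrease by 0.14 on the log2 scale passed the test (edgeR adjusted p = 0.0364) but not in DESeq2 (adjusted p = 0.237), in the fit of the 4 knockdown libraries alone (edgeR adjusted p = 0.0547) or with any 1 of these 4 libraries left out. Nras had a log2 change of -0.05 ± 0.03 (SE), edgeR adjusted p = 0.287. The counts do not say which Ras gene the label RasV12 stands for.

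All 8 keratinocyte markers examined were detected, with summed levels of 16444 and 15818 CPM in RasV12 knockdown cells, against 21051 and 20093 CPM in DMSO knockdown cells. Of these markers 3 were called higher and 3 lower, beside 19.5% and 16.6% of all tested genes, with a median log2 change of 0.02. The higher count was 1 in DESeq2 and with libraries scaled by their totals alone. The lower ones included Krt5 (mean 5737 CPM with RasV12, 8366 CPM with DMSO) and Krt14 (2993 and 4636 CPM). Of 8 fibroblast markers, 2 were tested, and Col3a1, Lum and Thy1 had no counts in any library. The fibroblast list summed to 1.11 and 2.03 CPM in RasV12 knockdown cells, against 2.75 and 3.02 CPM in DMSO knockdown cells. Of 12 immune, endothelial and pigment cell markers, 4 were tested, and Ptprc, Cd3e, Lyz2, Adgre1, Dct and Tyr were at 0 in all 4 knockdown libraries. Those 4 were Cd68, Pecam1, Mitf and Pmel, and the list summed to 87.8 and 85.7 CPM in RasV12 knockdown cells, against 64.1 and 65.3 CPM in DMSO knockdown cells. In bulk RNA, fewer cells of a type and less RNA per cell cannot be told apart, and the part of these markers in the results was not tested.

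RasV12 induction changed 4531 genes in knockdown cells (36.1% of those tested), 2446 of them higher (19.5%) and 2085 lower (16.6%). A gene counts as changed here at a Benjamini-Hochberg adjusted p of 0.05 in edgeR's quasi-likelihood test. Counts of list members below are to be read beside these shares of all tested genes, 19.5% higher and 16.6% lower. Most changes were small, with a median size of 0.30 on the log2 scale among the genes called. A change of at least 2-fold was reached by 249 genes that rose (1.99%) and 86 that fell (0.686%), so the larger changes lay mainly on the higher side. With libraries scaled by their totals alone, 43.8% of the calls were higher, against 54.0% with TMM scaling, and the median log2 change of all genes moved by -0.04. The groups of RasV12 and DMSO knockdown libraries did not overlap for 67.1% of the tested genes. The first principal component of the 4 knockdown libraries carried 78.5% of their variance and separated RasV12 from DMSO.

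**Figure D1:**
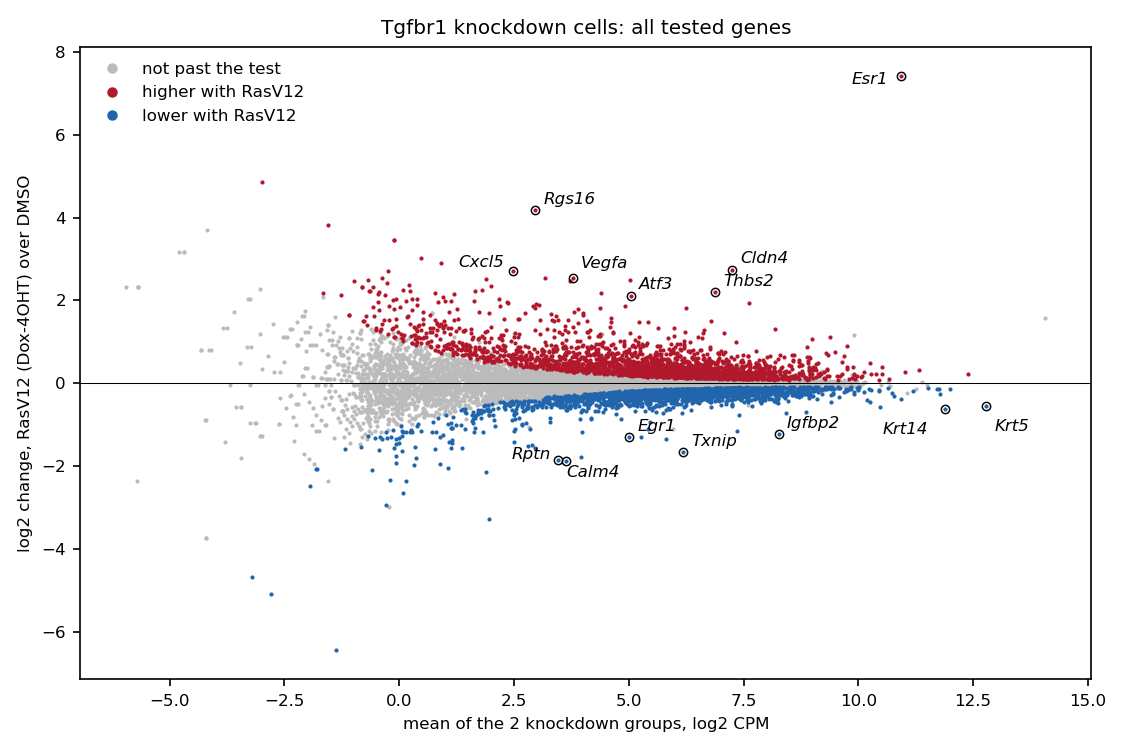
Mean level of each tested gene in the knockdown cells (log2 CPM, horizontal) against its log2 change with RasV12 over DMSO (vertical); genes past the test are coloured, and genes with no counts in the knockdown libraries could not be drawn. Esr1 stands apart at 7.43, and most coloured genes lie close to 0.

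The largest rise among genes with a mean of at least 5 CPM over the 4 knockdown libraries was that of Esr1, the oestrogen receptor that 4OHT binds. It had 3985 and 3785 CPM in RasV12 knockdown cells, against 22.8 and 22.4 CPM in DMSO knockdown cells, a 172-fold difference (log2 change 7.43 ± 0.05 (SE), edgeR adjusted p = 7.88e-30). The NS cells had 3449.6 and 3655 CPM with RasV12 and 15.9 and 14.1 CPM with DMSO, and gene-level counts do not say which transcript of Esr1 the reads came from. Of 10 oestrogen receptor target genes listed, 4 were tested and 3 rose (Areg, Ccnd1 and Xbp1), beside 19.5% of all tested genes. Greb1 and Pgr were too low to test. Areg was not called in DESeq2 (adjusted p = 0.124), and the part of Esr1 in these rises was not tested.

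After Esr1 came Rgs16, which accelerates GTP hydrolysis by G protein alpha subunits, with 14.7 and 14.8 CPM in RasV12 knockdown cells, against 0.763 and 0.843 CPM in DMSO knockdown cells. Cldn4, a tight junction claudin, had 266 and 266 CPM in RasV12 knockdown cells, against 40.3 and 38.98 CPM in DMSO knockdown cells, a 6.70-fold difference. Cxcl5, a chemokine that attracts neutrophils, had 10.3 and 8.98 CPM in RasV12 knockdown cells, against 1.37 and 1.55 CPM in DMSO knockdown cells. The replicates of each group lay close together and far from those of the other for all 3 genes. The log2 changes were 4.18 ± 0.22, 2.75 ± 0.05 and 2.72 ± 0.23 (SE), with an edgeR adjusted p of at most 3.13e-10. Next in order were the angiogenic factor Vegfa (log2 change 2.54 ± 0.14), the mitochondrial adenylate kinase Ak4 (2.53 ± 0.16), the water channel Aqp1 (2.50 ± 0.10) and the copper-carrying ferroxidase Cp (2.46 ± 0.13). The matrix protein Thbs2 (2.20 ± 0.06), the NOD-like receptor Nlrp10 (2.18 ± 0.10), the stress-induced factor Atf3 (2.12 ± 0.09) and the IL-18 receptor subunit Il18rap (1.96 ± 0.21) completed the 12 largest rises. All 12 were chosen among genes whose groups did not overlap.

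The largest falls included epidermal differentiation genes, Rptn and Calm4 first. Repetin (Rptn), a protein of the cornified cell envelope, had 6.12 and 4.30 CPM in RasV12 knockdown cells, against 22.6 and 16.3 CPM in DMSO knockdown cells (log2 change -1.87 ± 0.20 (SE), edgeR adjusted p = 1.87e-05). Calm4, a calmodulin-like protein of the epidermis, had 5.21 and 4.14 CPM in RasV12 knockdown cells, against 20.5 and 13.8 CPM in DMSO knockdown cells (log2 change -1.86 ± 0.19 (SE), edgeR adjusted p = 5.37e-07). The desmoglein Dsg1b, an adhesion molecule of the upper epidermal layers, had 4.23 and 3.44 CPM in RasV12 knockdown cells, against 12.7 and 9.34 CPM in DMSO knockdown cells (log2 change -1.50 ± 0.18 (SE), edgeR adjusted p = 5.41e-07). In each case the spread was wider between the DMSO libraries. The largest falls, too, were chosen among genes whose groups did not overlap.

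Outside that group, Txnip, an inhibitor of thioredoxin and of glucose uptake, had 38.3 and 30.9 CPM in RasV12 knockdown cells, against 115 and 106 CPM in DMSO knockdown cells, a 3.16-fold decrease (log2 change -1.66 ± 0.07 (SE), edgeR adjusted p = 1.14e-11). Its relative Arrdc4 fell by 0.57 on the log2 scale. Igfbp2, a binding protein for insulin-like growth factors, had 190.4 and 179 CPM in RasV12 knockdown cells, against 439 and 422 CPM in DMSO knockdown cells (log2 change -1.22 ± 0.04 (SE), edgeR adjusted p = 1.30e-19). The protease inhibitor gene Pi15 (-1.57 ± 0.18), the natriuretic peptide clearance receptor Npr3 (-1.51 ± 0.20), Megf6 (-1.17 ± 0.12) and the aldehyde dehydrogenase Aldh3a1 (-1.15 ± 0.18) also fell. Asprv1, an epidermal protease, and the keratin Krt15 had log2 changes of -1.34 and -1.31, with an edgeR adjusted p of 0.0241 and 0.0232. Both calls were lost without RasV12 replicate 1 or 2 of the knockdown cells (adjusted p 0.114 and 0.113 for Asprv1, 0.105 and 0.108 for Krt15) and without RasV12 replicate 1 or 2 of the NS cells (at most 0.0537 for either gene), that of Asprv1 also in the fit of the 4 knockdown libraries alone (0.107), and that of Krt15 also without DMSO replicate 1 of the knockdown cells (0.071).

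Genes of MAPK output and feedback rose as a group: of 22 tested, 17 were higher, 1 was lower and 4 did not pass the test, with a median log2 change of 0.56 beside 0.00 over all tested genes. The PEA3 factor Etv5, an ERK-induced ETS transcription factor, had 101 and 109 CPM in RasV12 knockdown cells, against 40.2 and 48.2 CPM in DMSO knockdown cells (log2 change 1.25 ± 0.07 (SE), edgeR adjusted p = 1.11e-13). Its relative Etv4 had 156 and 152 CPM in RasV12 knockdown cells, against 91.5 and 98.8 CPM in DMSO knockdown cells (log2 change 0.70 ± 0.05 (SE), edgeR adjusted p = 9.89e-12). Dusp6, the phosphatase that dephosphorylates ERK in the cytoplasm, had 139.6 and 139.7 CPM in RasV12 knockdown cells, against 73.3 and 83.9 CPM in DMSO knockdown cells (log2 change 0.83 ± 0.07 (SE), edgeR adjusted p = 1.14e-06). Replicates did not overlap between groups for any of the 3. Spry4, a Sprouty inhibitor of receptor tyrosine kinase signalling, had 11.3 and 12.97 CPM in RasV12 knockdown cells, against 2.14 and 4.64 CPM in DMSO knockdown cells, with the DMSO libraries apart from each other. The other brakes Dusp4 (log2 change 1.89), Dusp1 (1.21), Spry1 (0.75), Spry2 (0.60), Spred1 (0.21) and Spred2 (0.14) rose too.

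Several of these genes had a higher level in DMSO knockdown than in DMSO NS cells and a smaller response. Etv5 had 61.1 and 62.1 CPM in RasV12 NS cells, against 3.11 and 3.41 CPM in DMSO NS cells. Dusp6 had 126 and 128 CPM in RasV12 NS cells, against 16.2 and 21.3 CPM in DMSO NS cells. The DMSO knockdown level of both lay above the DMSO NS level, and their RasV12 levels were closer in ratio. By the interaction term of the same fit, 12 of the 22 genes had a lower response in knockdown than in NS cells (18% of all tested genes did). A higher response was called for 2 (20.2%). Lower means a negative difference here, so the 12 include Egr1, which fell in knockdown cells and rose in NS cells. The difference of the log2 responses, knockdown minus NS, was -2.99 ± 0.15 (SE), edgeR adjusted p = 9.30e-14 for Etv5. It was -2.72 ± 0.09 (SE), edgeR adjusted p = 9.30e-18 for Etv4. It was -1.95 ± 0.12 (SE), edgeR adjusted p = 4.61e-08 for Dusp6 and -3.48 ± 0.60 (SE) for Spry4.

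Ier3 and Egr1 departed from the pattern of smaller rises in opposite directions, although Egr1 is among the 12 lower responses. Ier3, an early response gene induced by ERK and NF-kB, had 306 and 317 CPM in RasV12 knockdown cells, against 78.8 and 83.1 CPM in DMSO knockdown cells (log2 change 1.94 ± 0.05 (SE), edgeR adjusted p = 5.38e-22), and its response exceeded that of NS cells by 1.23 ± 0.08 (SE), edgeR adjusted p = 2.90e-12. Egr1, an immediate early zinc finger factor, had 19.1 and 18.1 CPM in RasV12 knockdown cells, against 43.4 and 48.7 CPM in DMSO knockdown cells, a 2.47-fold decrease (log2 change -1.30 ± 0.08 (SE), edgeR adjusted p = 9.70e-13). Egr1 had 19.1 and 20.9 CPM in RasV12 NS cells, against 14.05 and 14.5 CPM in DMSO NS cells, so that its change there was upward (0.49) and the difference of responses was -1.80 ± 0.13 (SE), edgeR adjusted p = 2.38e-11. The genes Dusp2, Dusp5, Ier2 and Myc did not pass the test in knockdown cells, with log2 changes between -0.10 and 0.37.

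**Figure D2:**
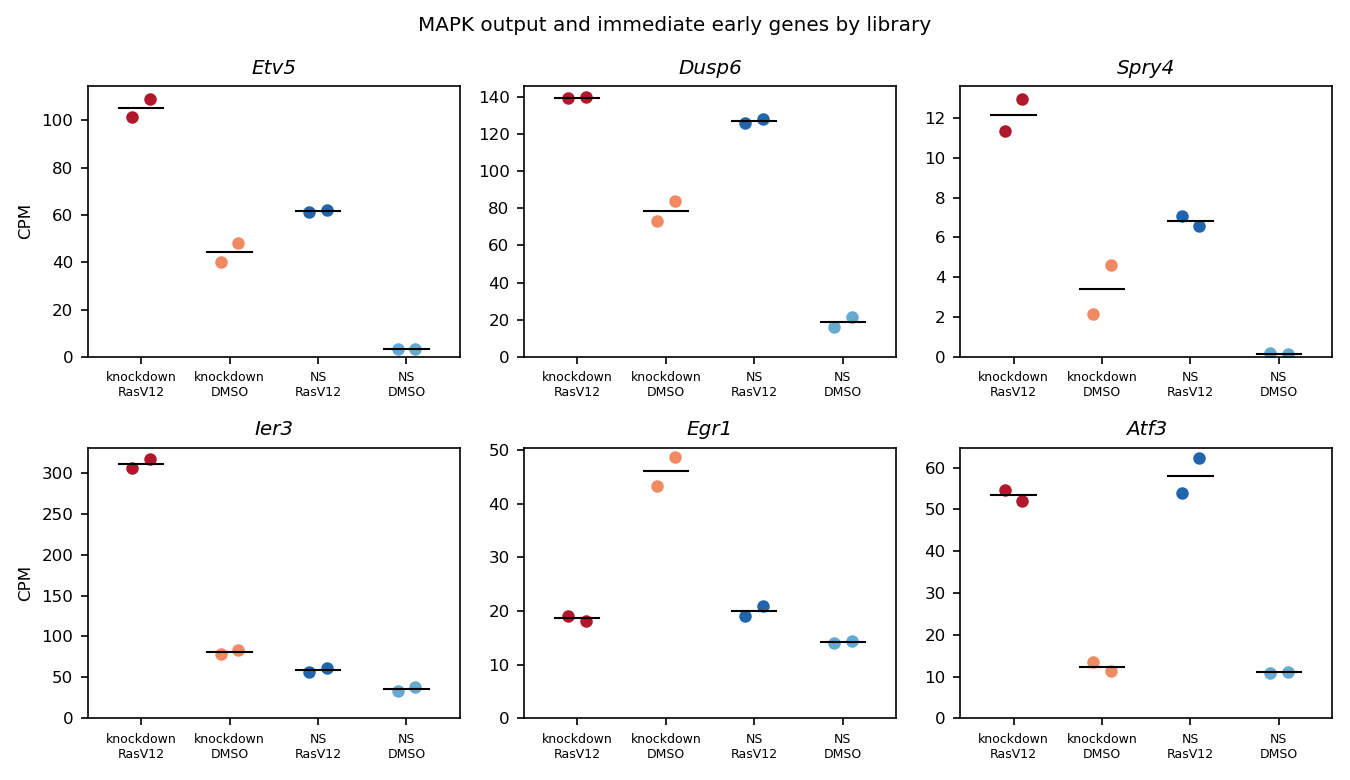
CPM of 6 genes in each library (points) with the mean of the 2 libraries of a group (line), for knockdown cells with RasV12 and DMSO and NS cells with RasV12 and DMSO; vertical scales start at 0. Etv5, Dusp6 and Spry4 are raised in DMSO knockdown cells and highest in RasV12 knockdown cells, while Egr1 is highest in DMSO knockdown cells.

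The promoters of 3 members of this group that rose and had a RefSeq window (build GRCm38.p6) are given. They are not the 3 largest rises of the group. Spry4 (log2 change 1.81) and Dusp4 rose more than Etv5 (1.25) and are not among them. Each line holds the 250 bases before the start, 5′ to 3′, and capitals mark a match to the AP-1 motif TGANTCA or the TEAD motif CATTCC on either strand.
Etv1 (chr12:38779832-38780081, plus strand): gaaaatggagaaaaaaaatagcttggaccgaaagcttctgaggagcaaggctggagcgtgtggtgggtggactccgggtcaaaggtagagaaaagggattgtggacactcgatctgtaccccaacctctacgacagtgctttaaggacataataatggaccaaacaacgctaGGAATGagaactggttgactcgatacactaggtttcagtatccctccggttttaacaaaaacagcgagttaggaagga
Ier3 (chr17:35821463-35821712, plus strand): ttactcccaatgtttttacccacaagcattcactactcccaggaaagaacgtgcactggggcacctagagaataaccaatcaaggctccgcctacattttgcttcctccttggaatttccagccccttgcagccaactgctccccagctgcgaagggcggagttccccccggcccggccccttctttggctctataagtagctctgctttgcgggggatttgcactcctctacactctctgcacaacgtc
Etv5 (chr16:22439571-22439820, minus strand): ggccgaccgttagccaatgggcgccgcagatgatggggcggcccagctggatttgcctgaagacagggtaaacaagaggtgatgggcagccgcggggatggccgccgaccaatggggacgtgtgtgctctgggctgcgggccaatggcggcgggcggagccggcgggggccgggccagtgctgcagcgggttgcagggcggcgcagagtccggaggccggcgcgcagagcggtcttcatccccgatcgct
The Etv1 window held 1 TEAD match, GGAATG, starting 78 bases before the start, and the windows of Ier3 and Etv5 held no match to either motif. Of 27025 windows in the table, 6.87% held the AP-1 motif and 12.6% the TEAD motif. Etv1 had 1.69 and 1.72 CPM in RasV12 knockdown cells, against 0.229 and 0.0702 CPM in DMSO knockdown cells (log2 change 3.46 ± 0.57 (SE), edgeR adjusted p = 1.70e-05). Only 68.3% of the 249 genes at least 2-fold higher had a window, under the 80% required, so motif shares were not compared between gene groups.

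AP-1 subunits rose almost throughout: of 12 tested, 11 were higher and none lower, with a median log2 change of 0.74. Atf3 had 54.6 and 52.1 CPM in RasV12 knockdown cells, against 13.4 and 11.2 CPM in DMSO knockdown cells. Jund had 577 and 562 CPM in RasV12 knockdown cells, against 406 and 375 CPM in DMSO knockdown cells (log2 change 0.55 ± 0.04 (SE), edgeR adjusted p = 2.85e-12). Fosl1, a FOS family member often raised in Ras-transformed cells, had 27.5 and 26.4 CPM in RasV12 knockdown cells, against 13.1 and 14.6 CPM in DMSO knockdown cells (log2 change 0.96 ± 0.10 (SE), edgeR adjusted p = 1.06e-08). The 3 genes had non-overlapping groups. Fosl2 rose in knockdown cells (0.42) and fell in NS cells (-0.61), a difference of 1.04 ± 0.05 (SE), edgeR adjusted p = 4.00e-15. Fos rose by 0.78, a call lost in DESeq2 (adjusted p = 0.11) and without RasV12 replicate 2 or DMSO replicate 1 (edgeR adjusted p = 0.067 and 0.0837). Mafk alone did not pass the test, at 0.12.

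Of 22 tested genes of the Ras and RAF-MEK-ERK cascade, 6 rose and 3 fell, near the 19.5% higher and 16.6% lower of all tested genes, with a median log2 change of 0.08 and none reaching 2-fold. The Ras-related Rras (0.52), the kinase Map2k1 (0.44) and the Ras GTPase-activating protein Rasa1 (0.25) rose, while Braf (-0.01) did not pass the test. The count of lower genes was 1 in DESeq2 and without RasV12 replicate 1, RasV12 replicate 2 or DMSO replicate 2.

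Of 12 tested ligands, receptors and regulators of the EGF receptor family, 4 rose and 1 fell in knockdown cells, beside 19.5% and 16.6% of all tested genes. In NS cells 9 rose and none fell (of all tested genes, 20.8% rose there and 21.3% fell). By the interaction test 8 had the lower response in knockdown cells, beside 18% of all tested genes. Ereg had 16.5 and 15.8 CPM in RasV12 knockdown cells, against 16.7 and 18.1 CPM in DMSO knockdown cells, with both RasV12 libraries just below the DMSO libraries (edgeR adjusted p = 0.463). Nrg1 had 26.96 and 30.5 CPM in RasV12 knockdown cells, against 26.1 and 30.3 CPM in DMSO knockdown cells, with overlapping groups (edgeR adjusted p = 0.91). In NS cells these rose by 1.33 and 1.00 on the log2 scale, and the responses differed by -1.44 ± 0.24 (SE), edgeR adjusted p = 2.27e-05, for Ereg and by -0.99 ± 0.13 (SE), edgeR adjusted p = 1.46e-06, for Nrg1. The rises of Tgfa (0.34) and the receptor Erbb3 (0.38) kept their calls in every alternative, and those of Areg and Epgn did not. Areg lost its call in DESeq2 (adjusted p = 0.124) and without RasV12 replicate 1 or DMSO replicate 1 (edgeR adjusted p = 0.0916 and 0.0613). Epgn lost it in 12 of the 16 alternatives. The count of higher members was 2 in DESeq2 and without RasV12 replicate 1. The fall of Egfr by 0.12 was not called in DESeq2 (adjusted p = 0.204) or without RasV12 replicate 1 or DMSO replicate 1 (edgeR adjusted p = 0.366 and 0.186), and its log2 change was -0.07 without RasV12 replicate 1.

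Inflammatory cytokines and NF-kB genes rose in 18 of 20 tested, with none lower, a median log2 change of 0.90 and 9 genes at least 2-fold higher. Cxcl1, a neutrophil chemokine, had 45.2 and 50.3 CPM in RasV12 knockdown cells, against 13.4 and 12.5 CPM in DMSO knockdown cells (log2 change 1.88 ± 0.09 (SE), edgeR adjusted p = 6.26e-15). Ptgs2, the inducible cyclooxygenase of prostaglandin synthesis, had 423 and 407 CPM in RasV12 knockdown cells, against 154 and 180.4 CPM in DMSO knockdown cells (log2 change 1.31 ± 0.09 (SE), edgeR adjusted p = 5.51e-05). Icam1, a leukocyte adhesion molecule, had 94.2 and 97.2 CPM in RasV12 knockdown cells, against 51.9 and 50.4 CPM in DMSO knockdown cells (log2 change 0.90 ± 0.06 (SE), edgeR adjusted p = 8.75e-13). In all 3 both RasV12 libraries were above both DMSO libraries. Cytokines of lower level had log2 changes of 2.90 ± 0.36 for Il1a, 2.24 ± 0.30 for Tnf, 1.70 ± 0.24 for Il33 and 1.53 ± 0.17 for Ccl2 (SE). Among the pathway's own genes, the inhibitor Nfkbia (0.78) and the subunits Relb (0.90) and Nfkb2 (0.59) rose, while Nfkb1 (0.08) and the cytokine Il18 (-0.09) did not pass the test. Il6, Il1b, Cxcl2, Cxcl3, Ccl7, Csf2 and Csf3 were too low to test.

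Of these 20 genes, 10 had a higher response in knockdown than in NS cells (20.2% of all tested genes did) and 2 a lower one (18%). Ptgs2 had 79.6 and 69.9 CPM in RasV12 NS cells, against 73.4 and 80.5 CPM in DMSO NS cells, and the groups overlapped. The difference of its responses was 1.35 ± 0.14 (SE), edgeR adjusted p = 4.40e-04. For Nfkbia it was 0.76 ± 0.08 (SE), edgeR adjusted p = 3.46e-08. Tnf and Cxcl5 were at or below 0.309 CPM in all NS libraries, and for them the difference did not pass the test (edgeR adjusted p = 0.11 and 0.224). Tnf alone gave a called difference without RasV12 replicate 1 of the NS cells (edgeR adjusted p = 0.0155).

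Interferon-stimulated and antigen presentation genes gave fewer calls than the inflammatory list. Of 18 interferon-stimulated genes tested, 5 rose (Ifit1, Ifih1, Irf1, Stat2 and Ddx58) and none fell, and of 9 genes of MHC class I presentation, 5 rose (B2m, Tap2, Tapbp, H2-K1 and H2-D1) and none fell. Of all tested genes 19.5% rose, a share to which that of the interferon-stimulated genes is near. Without DMSO replicate 2 these counts were 2 and 3. Tapbp, which loads peptides on MHC class I, had 416 and 412 CPM in RasV12 knockdown cells, against 309.7 and 302 CPM in DMSO knockdown cells (log2 change 0.44 ± 0.07 (SE), edgeR adjusted p = 9.84e-04). It fell in NS cells (-0.55), and the responses differed by 0.98 ± 0.10 (SE), edgeR adjusted p = 6.38e-05.

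Genes of hypoxia and glycolysis rose nearly throughout: 22 of 24 tested were higher, none lower, and the median log2 change was 0.62. Aldoa, the muscle-type aldolase of glycolysis, had 908 and 915 CPM in RasV12 knockdown cells, against 427 and 412 CPM in DMSO knockdown cells (log2 change 1.12 ± 0.04 (SE), edgeR adjusted p = 1.60e-15). Ndrg1, a hypoxia-induced differentiation gene, had 118 and 120.0 CPM in RasV12 knockdown cells, against 36.3 and 31.3 CPM in DMSO knockdown cells (log2 change 1.82 ± 0.06 (SE), edgeR adjusted p = 1.27e-18). Ldha, which turns pyruvate into lactate, had 895 and 924 CPM in RasV12 knockdown cells, against 546 and 522 CPM in DMSO knockdown cells (log2 change 0.77 ± 0.04 (SE), edgeR adjusted p = 3.42e-15). The RasV12 libraries stood well apart from the DMSO libraries in each. Vegfa had 22.1 and 24.6 CPM in RasV12 knockdown cells, against 4.43 and 3.58 CPM in DMSO knockdown cells. The mitophagy receptor Bnip3 (1.78 ± 0.12), the prolyl hydroxylase Egln3 (1.35 ± 0.07), the isomerase Tpi1 (0.87 ± 0.04) and Hif1a itself (0.45 ± 0.04) rose as well. Pfkfb3 and Slc16a3 did not pass the test. The glucose transporter Slc2a1 rose by 0.22, a value of 0.14 without DMSO replicate 2, and its call was lost without RasV12 replicate 1 of the knockdown or of the NS cells (edgeR adjusted p = 0.0518 and 0.0502).

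Of the 24 genes, 18 had a higher response in knockdown than in NS cells and none a lower one, beside 20.2% and 18% of all tested genes. In NS cells 16 rose and 4 fell, beside 20.8% and 21.3% of all tested genes, with the lower share near that of all genes. Aldoa had 596 and 664 CPM in RasV12 NS cells, against 582 and 589 CPM in DMSO NS cells. The groups of NS libraries were close, and the difference of responses was 1.01 ± 0.06 (SE), edgeR adjusted p = 5.44e-12. For Ndrg1 it was 1.56 ± 0.09 (SE), edgeR adjusted p = 1.66e-13. Hif1a fell in NS cells (-0.24), giving a difference of 0.69 ± 0.06 (SE), edgeR adjusted p = 3.50e-08. Reads of Aldoa may be shared with its near-identical copies.

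The targets of ATF4, the transcription factor of the integrated stress response, rose in 18 of 23 tested, with a median log2 change of 0.42, beside 0.42 in NS cells. Ddit4, an inhibitor of mTORC1, had 159.8 and 165 CPM in RasV12 knockdown cells, against 60.8 and 54.4 CPM in DMSO knockdown cells (log2 change 1.49 ± 0.06 (SE), edgeR adjusted p = 2.89e-17). Trib3, a pseudokinase, had 25.4 and 23.98 CPM in RasV12 knockdown cells, against 7.18 and 8.01 CPM in DMSO knockdown cells (log2 change 1.70 ± 0.11 (SE), edgeR adjusted p = 2.25e-12). Chac1, which degrades glutathione, had 33.1 and 31.1 CPM in RasV12 knockdown cells, against 9.85 and 8.50 CPM in DMSO knockdown cells (log2 change 1.81 ± 0.12 (SE), edgeR adjusted p = 8.01e-11). No group overlapped, and Atf4 itself rose by 0.57. The cystine transporter Slc7a11 rose (0.42) where it fell in NS cells (-1.32), a difference of 1.74 ± 0.08 (SE), edgeR adjusted p = 1.45e-15. The 2 lower members were the amino acid transporters Slc7a5 and Slc1a5, and the count of lower members was 0 in DESeq2 and without RasV12 replicate 2 or DMSO replicate 2, and 1 without RasV12 replicate 1 of the knockdown cells or either RasV12 replicate of the NS cells.

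Of 12 aminoacyl-tRNA synthetases, which charge tRNAs with amino acids, 9 rose and 1 fell in knockdown cells (none fell without RasV12 replicate 1), and 9 rose in NS cells. Of all tested genes 19.5% rose and 16.6% fell in knockdown cells, and 20.8% rose in NS cells. A wider family of 18 cytosolic synthetases, examined after its values were seen, had 9 members higher and 4 lower in knockdown cells. In NS cells 11 of this family rose and 1 fell. By the interaction test 6 of them had the lower response in knockdown cells and 1 the higher. Cars had log2 changes of 0.60 in knockdown and 0.60 in NS cells, with a difference of -0.01 ± 0.08 (SE), edgeR adjusted p = 0.968. Of 25 genes of cholesterol and fatty acid synthesis tested, 15 rose, among them the sterol enzymes Msmo1 (0.41) and Cyp51 (0.34) and their regulator Srebf2 (0.31). Another 5 fell, near the 16.6% of all tested genes. The fatty acid enzymes Fasn (-0.45), Acaca (-0.48) and Elovl6 (-0.12) and the sterol enzyme Idi1 (-0.33) were among them. The count of lower members was 2 in DESeq2 and without RasV12 replicate 2, and 3 without DMSO replicate 2.

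DNA replication genes fell in knockdown cells: 20 of 21 tested were lower and none higher, with a median log2 change of -0.36. Mcm2, a subunit of the replicative helicase, had 259 and 249.5 CPM in RasV12 knockdown cells, against 348 and 358 CPM in DMSO knockdown cells (log2 change -0.47 ± 0.04 (SE), edgeR adjusted p = 8.89e-11). Mcm4, another subunit, had 263 and 256 CPM in RasV12 knockdown cells, against 332 and 357 CPM in DMSO knockdown cells (log2 change -0.41 ± 0.04 (SE), edgeR adjusted p = 1.61e-09). Replicates lay within a narrow range, and the groups did not overlap. E2f1 alone did not pass the test (-0.04). None of the falls reached 2-fold.

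Mitotic genes fell in smaller number. Of 21 tested, 14 were lower and none higher, with a median log2 change of -0.16. Ccnb1, a cyclin of entry into mitosis, had 59.8 and 58.9 CPM in RasV12 knockdown cells, against 71.8 and 76.8 CPM in DMSO knockdown cells (log2 change -0.32 ± 0.06 (SE), edgeR adjusted p = 4.28e-05). Cdc20, an activator of the anaphase-promoting complex, had 122 and 119 CPM in RasV12 knockdown cells, against 148 and 147 CPM in DMSO knockdown cells (log2 change -0.29 ± 0.04 (SE), edgeR adjusted p = 7.13e-06). Mki67, the gene of the proliferation antigen Ki-67, had 333 and 432 CPM in RasV12 knockdown cells, against 402 and 475 CPM in DMSO knockdown cells, so that its groups overlapped (edgeR adjusted p = 0.461). Cdk1, Aurka, Aurkb, Bub1, Cdc25b and Cdc25c also did not pass the test.

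Both groups moved the other way in NS cells, where 14 replication genes rose and 2 fell, and 21 mitotic genes rose. Of all tested genes 20.8% rose and 21.3% fell in NS cells. The interaction was called for 18 of 21 replication genes and 20 of 21 mitotic genes, all with the lower response in knockdown cells. A lower response there was called for 18% of all tested genes. Mcm2 had 284 and 294 CPM in RasV12 NS cells, against 235 and 249 CPM in DMSO NS cells, a difference of responses of -0.73 ± 0.05 (SE), edgeR adjusted p = 2.64e-11. Ccnb1 had 88.4 and 82.1 CPM in RasV12 NS cells, against 60.3 and 59.7 CPM in DMSO NS cells, a difference of -0.83 ± 0.08 (SE), edgeR adjusted p = 3.57e-09. In both genes the lowest knockdown group was RasV12 and the lowest NS group was DMSO.

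**Figure D3:**
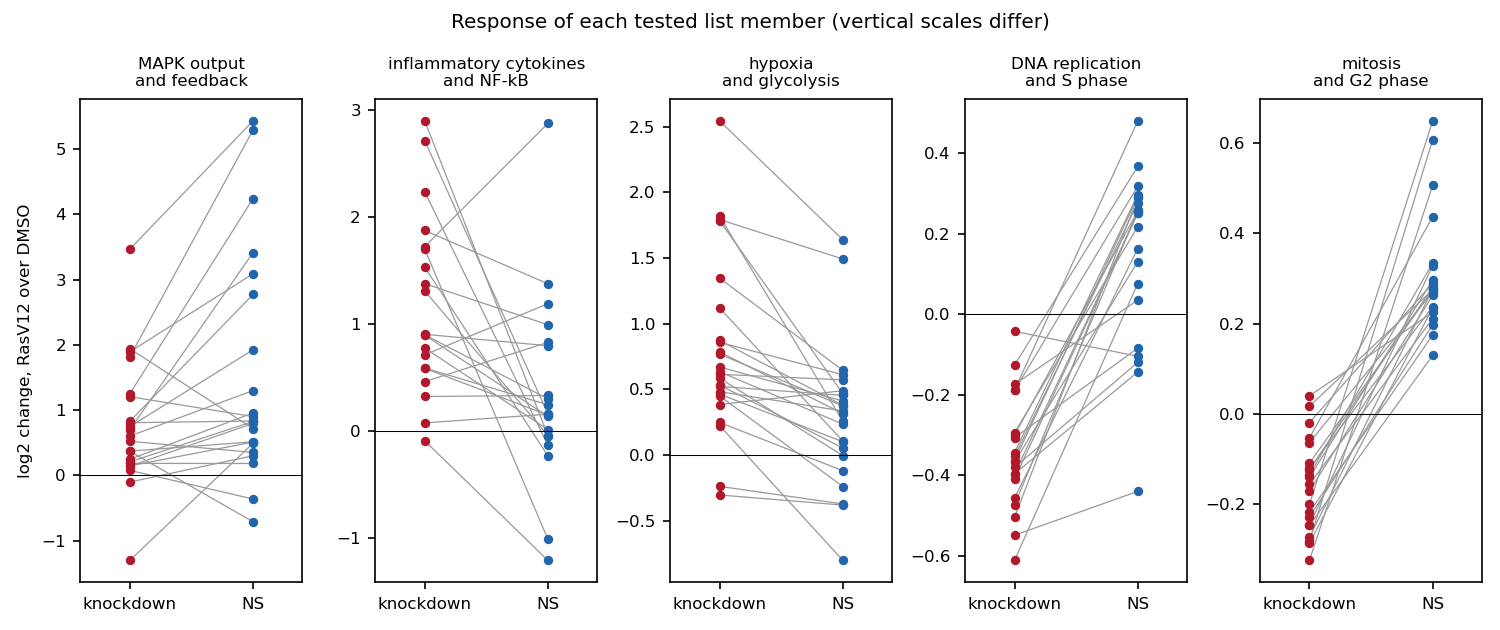
Log2 change with RasV12 over DMSO of each tested member of 5 gene lists (points), in knockdown cells and in NS cells, with lines joining the same gene; vertical scales differ. The replication and mitosis members cross from mostly negative values in knockdown cells to mostly positive values in NS cells. Most MAPK members have the lower response in knockdown cells.

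CDK inhibitors also changed. Cdkn1a, the gene of p21, had 69.8 and 67.5 CPM in RasV12 knockdown cells, against 42.1 and 36.8 CPM in DMSO knockdown cells (log2 change 0.80 ± 0.06 (SE), edgeR adjusted p = 1.27e-10). It had 30.2 and 31.8 CPM in RasV12 NS cells, against 51.7 and 49.3 CPM in DMSO NS cells, so that it fell there and the responses differed by 1.51 ± 0.10 (SE), edgeR adjusted p = 2.08e-12. Cdkn2b, a TGF-beta-inducible inhibitor of CDK4 and CDK6, had 49.2 and 47.3 CPM in RasV12 knockdown cells, against 36.6 and 34.00 CPM in DMSO knockdown cells (log2 change 0.45 ± 0.07 (SE), edgeR adjusted p = 4.41e-06). The groups of RasV12 and DMSO knockdown libraries did not overlap for either gene. Cdkn2a rose by 0.24, and the D cyclin Ccnd1 rose to 389 and 383 CPM in RasV12 knockdown cells, against 228 and 249 CPM in DMSO knockdown cells, a response that did not differ detectably from that of NS cells (0.01 ± 0.06 (SE), edgeR adjusted p = 0.876). Of 19 p53 targets tested, 8 rose, including Pmaip1 (0.50) and Btg2 (0.73), and 1 fell, beside 19.5% and 16.6% of all tested genes. The lower one was Sesn1, which fell by 0.34 and was not called in DESeq2. Trp53 was at 0.04 and did not pass the test.

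Genes of ribosome biogenesis and the Myc network fell in 9 of 18 tested and rose in 2, with a median log2 change of -0.23. Ncl, the nucleolar protein nucleolin, had 1003 and 1001 CPM in RasV12 knockdown cells, against 1275 and 1370.0 CPM in DMSO knockdown cells (log2 change -0.40 ± 0.03 (SE), edgeR adjusted p = 1.18e-10). Cad, which starts pyrimidine synthesis, had 258 and 268 CPM in RasV12 knockdown cells, against 409 and 449 CPM in DMSO knockdown cells (log2 change -0.71 ± 0.05 (SE), edgeR adjusted p = 5.84e-08). The Myc antagonist Mxi1 rose by 0.49. Myc had 105 and 108 CPM in RasV12 knockdown cells, against 98.3 and 104 CPM in DMSO knockdown cells, and its change did not pass the test (edgeR adjusted p = 0.241). In NS cells 8 of the 18 rose and 3 fell, beside 20.8% and 21.3% of all tested genes. By the interaction test 9 had the lower response in knockdown cells and 4 the higher, beside 18% and 20.2% of all tested genes. A family examined after its values were seen, the 83 cytosolic ribosomal protein genes tested, had 22 members lower and none higher in knockdown cells, beside 16.6% and 19.5% of all tested genes. In NS cells 15 rose and 3 fell, with the higher share near the 20.8% of all tested genes.

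**Figure D4:**
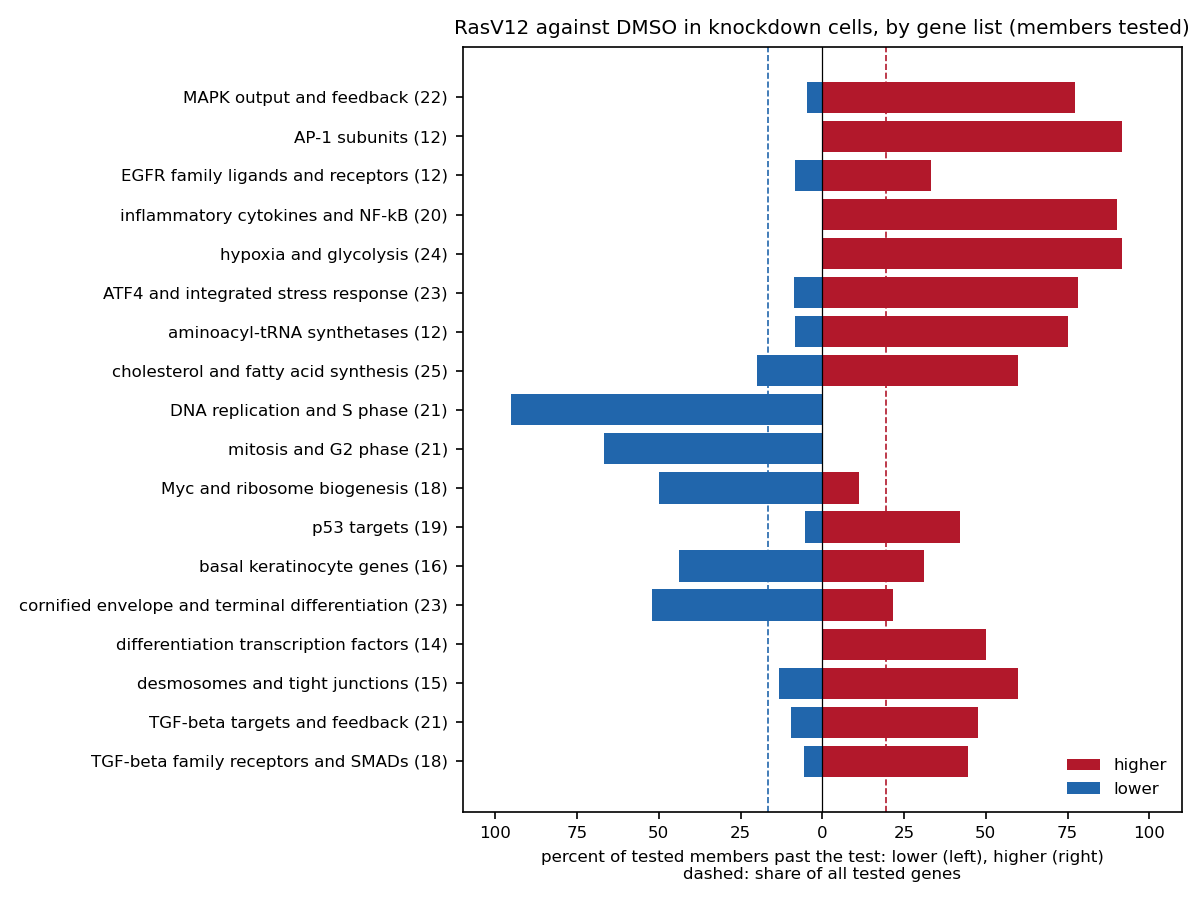
Share of the tested members of 18 gene lists that were higher (right) or lower (left) with RasV12 in knockdown cells; the number tested is in parentheses, and dashed lines give the shares over all tested genes, 19.5% higher and 16.6% lower. The replication and mitosis lists lie wholly on the lower side, and the inflammatory, hypoxia and AP-1 lists wholly on the higher side.

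Basal keratins fell. Krt5, a keratin of basal keratinocytes, had 5956 and 5518 CPM in RasV12 knockdown cells, against 8582 and 8149.5 CPM in DMSO knockdown cells (log2 change -0.54 ± 0.03 (SE), edgeR adjusted p = 1.51e-10). Its partner Krt14 had 3024 and 2962 CPM in RasV12 knockdown cells, against 4783 and 4490.2 CPM in DMSO knockdown cells (log2 change -0.63 ± 0.03 (SE), edgeR adjusted p = 6.94e-14). Trp63, the master regulator of stratified epithelium, had 461 and 436 CPM in RasV12 knockdown cells, against 446 and 446 CPM in DMSO knockdown cells, with overlapping groups. Of 16 basal keratinocyte genes, 7 fell and 5 rose, beside 16.6% and 19.5% of all tested genes. The laminin chain Lamb3 (0.23) was among those that rose. The higher count was 3 with library totals alone, without RasV12 replicate 2 and without DMSO replicate 1. In NS cells Krt5 and Krt14 fell more (-1.18 and -1.23), and the responses differed by 0.63 ± 0.05 and 0.60 ± 0.04 (SE), with an edgeR adjusted p of 3.70e-09 and 1.64e-10.

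Cornified envelope and terminal differentiation genes fell in 12 of 23 tested and rose in 5, with a median log2 change of -0.95. The summed level of the list did not separate the groups. It was 901 and 908 CPM in RasV12 knockdown cells, against 912 and 845 CPM in DMSO knockdown cells. Loricrin (Lor), the major protein of the cornified envelope, had 31.3 and 29.2 CPM in RasV12 knockdown cells, against 61.8 and 55.1 CPM in DMSO knockdown cells (log2 change -0.95 ± 0.08 (SE), edgeR adjusted p = 1.15e-10). Sbsn, a secreted protein of the suprabasal epidermis, had 28.7 and 25.00 CPM in RasV12 knockdown cells, against 63.3 and 53.4 CPM in DMSO knockdown cells (log2 change -1.11 ± 0.10 (SE), edgeR adjusted p = 3.18e-06). The DMSO libraries were the higher ones in both. Sprr1b, a small proline-rich envelope precursor, went the other way and had 191 and 187 CPM in RasV12 knockdown cells, against 81.3 and 80.4 CPM in DMSO knockdown cells (log2 change 1.22 ± 0.05 (SE), edgeR adjusted p = 2.89e-17). Ivl, Tgm1, Tgm3 and Evpl were the other 4 higher members, and the higher count was 3 in DESeq2, where Ivl (adjusted p = 0.0696) and Tgm1 (0.131) were not called. Without RasV12 replicate 1 Ivl was not called (edgeR adjusted p = 0.0766), nor was Tgm1 without RasV12 replicate 2 (0.128). Reads of Sprr genes may be divided among near-identical copies.

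Regulators of differentiation rose in 7 of 14 tested, with none lower. Grhl3, a factor of barrier formation, had 35.6 and 36.3 CPM in RasV12 knockdown cells, against 13.4 and 12.2 CPM in DMSO knockdown cells (log2 change 1.49 ± 0.09 (SE), edgeR adjusted p = 7.69e-13). Ovol1 had 39.2 and 39.5 CPM in RasV12 knockdown cells, against 23.2 and 23.5 CPM in DMSO knockdown cells (log2 change 0.75 ± 0.08 (SE), edgeR adjusted p = 2.49e-08). Klf4 had 258 and 259.7 CPM in RasV12 knockdown cells, against 203 and 197 CPM in DMSO knockdown cells (log2 change 0.37 ± 0.04 (SE), edgeR adjusted p = 5.88e-09). All 3 had non-overlapping groups. Klf4 and Ovol1 fell in NS cells (-0.37 and -0.62), with differences of 0.74 ± 0.05 (SE), edgeR adjusted p = 1.51e-11, for Klf4 and 1.37 ± 0.13 (SE), edgeR adjusted p = 2.93e-09, for Ovol1.

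The wound keratins gave no higher call. Krt6a had 1182 and 1119.7 CPM in RasV12 knockdown cells, against 1156 and 1086 CPM in DMSO knockdown cells, and Krt16 had 71.2 and 66.8 CPM in RasV12 knockdown cells, against 77.8 and 65.7 CPM in DMSO knockdown cells. Both overlapped between groups and did not pass the test (edgeR adjusted p = 0.429 and 0.672). Krt17 fell by 0.11 on the log2 scale, a call lost in DESeq2 and without RasV12 replicate 1, RasV12 replicate 2 or DMSO replicate 1 (adjusted p between 0.08 and 0.273). Its log2 change was -0.18 without DMSO replicate 2 and -0.05 without DMSO replicate 1. Krt16 had 50.6 and 54.8 CPM in RasV12 NS cells, against 364 and 335 CPM in DMSO NS cells, and the difference of its responses was 2.68 ± 0.11 (SE), edgeR adjusted p = 8.01e-09. Reads of these keratins may be shared between near-identical genes. Among 21 keratins tested, a family examined after its values were seen, 7 fell and none rose, beside 16.6% and 19.5% of all tested genes.

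Junction genes rose in 9 of 15 tested and fell in 2, the desmosomal cadherins Dsg3 and Dsc3, beside 19.5% and 16.6% of all tested genes. The desmoglein Dsg1b, which this count does not include, had a log2 change of -1.50. Ocln, the tight junction protein occludin, had 33.9 and 32.4 CPM in RasV12 knockdown cells, against 16.3 and 17.7 CPM in DMSO knockdown cells (log2 change 0.96 ± 0.09 (SE), edgeR adjusted p = 1.19e-09). The plaque protein Dsp had 2733 and 2969 CPM in RasV12 knockdown cells, against 2277 and 2259 CPM in DMSO knockdown cells (log2 change 0.33 ± 0.04 (SE), edgeR adjusted p = 1.97e-07). Cldn1 rose by 0.36, where it fell in NS cells (-0.82). The epithelial cadherin Cdh1 had 666 and 664 CPM in RasV12 knockdown cells, against 552 and 552 CPM in DMSO knockdown cells (log2 change 0.27 ± 0.03 (SE), edgeR adjusted p = 1.57e-07), and its response exceeded that of NS cells by 0.61 ± 0.05 (SE), edgeR adjusted p = 4.74e-11. The neural cadherin Cdh2 fell by 0.28, with a log2 change of -0.28 in NS cells. The calcium-binding protein gene S100a4, a mesenchymal marker, rose (0.48 ± 0.17, SE; edgeR adjusted p = 0.0283), a call lost in DESeq2 (adjusted p = 0.238) and without RasV12 replicate 1, DMSO replicate 1 or DMSO replicate 2 (edgeR adjusted p = 0.216, 0.0725 and 0.136). The EMT factors Zeb1, Zeb2 and Twist1 and the filament gene Vim did not pass the test in knockdown cells, with log2 changes from 0.01 to 0.77.

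**Figure D5:**
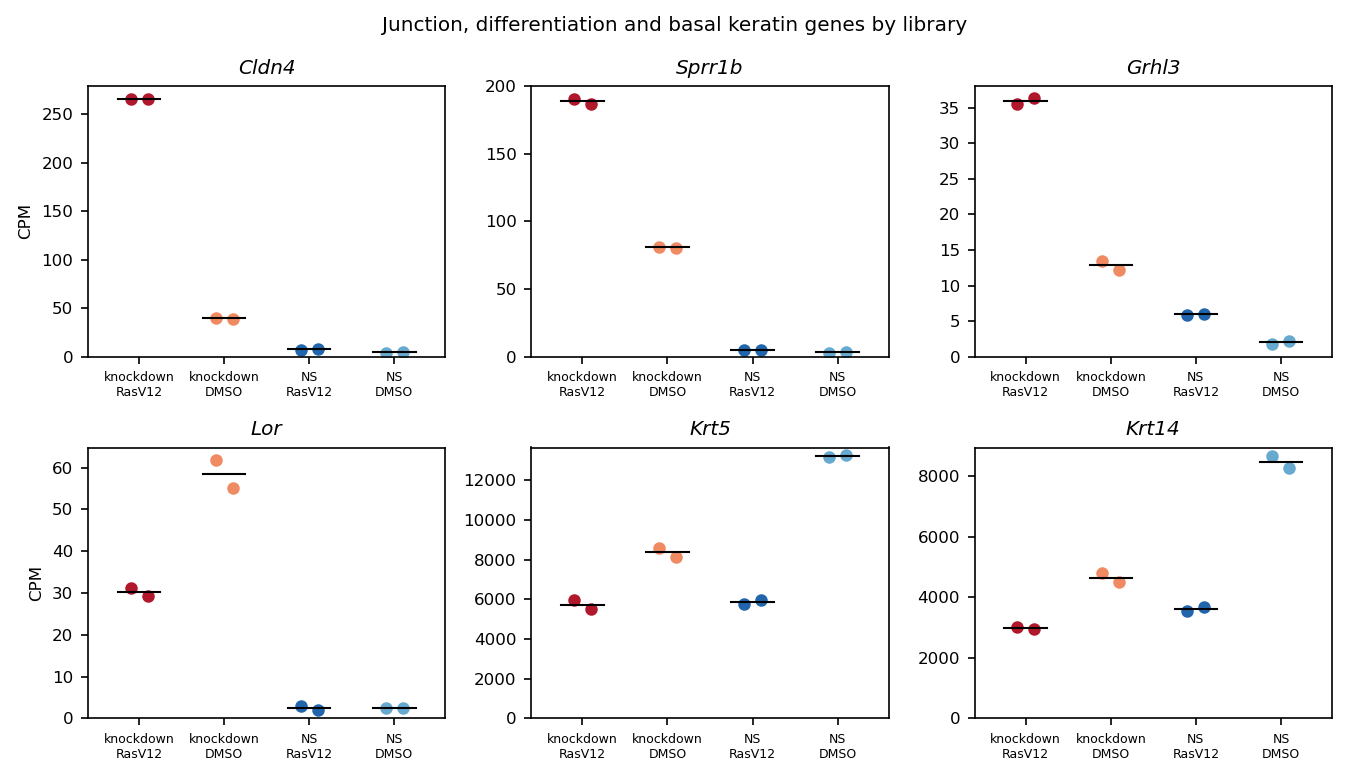
CPM of 6 epithelial genes in each library (points) with the group mean (line), for knockdown cells with RasV12 and DMSO and NS cells with RasV12 and DMSO; vertical scales start at 0. Cldn4 and Sprr1b are highest in RasV12 knockdown cells, Lor is highest in DMSO knockdown cells, and Krt5 and Krt14 are highest in DMSO NS cells.

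Among TGF-beta pathway genes, 8 of 18 receptors and SMADs rose and 1 fell. Tgfbr3, the co-receptor betaglycan, had 7.29 and 6.09 CPM in RasV12 knockdown cells, against 1.37 and 1.26 CPM in DMSO knockdown cells (log2 change 2.35 ± 0.24 (SE), edgeR adjusted p = 1.05e-08). Smad1, an effector of BMP receptors, had 76.1 and 74.2 CPM in RasV12 knockdown cells, against 44.8 and 45.9 CPM in DMSO knockdown cells (log2 change 0.73 ± 0.06 (SE), edgeR adjusted p = 1.39e-10). These groups did not overlap. The higher count was 5 in DESeq2, and the single lower member, Smad5, was not called with DESeq2 size factors, in DESeq2, or without RasV12 replicate 1, DMSO replicate 1 or DMSO replicate 2, while 2 were lower with library totals alone, under either change of the low-count filter, without Rn45s, without a RasV12 replicate of the NS cells and in the fit of the 4 knockdown libraries.

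TGF-beta target genes did not move as 1 group: 10 of 21 rose and 2 fell, with a median log2 change of 0.10. Bhlhe40, a transcription repressor, had 90.1 and 92.6 CPM in RasV12 knockdown cells, against 38.8 and 33.6 CPM in DMSO knockdown cells (log2 change 1.34 ± 0.07 (SE), edgeR adjusted p = 2.31e-14). Thbs1, a matrix protein that activates latent TGF-beta, had 1110.5 and 1162 CPM in RasV12 knockdown cells, against 1650.5 and 1747 CPM in DMSO knockdown cells (log2 change -0.58 ± 0.03 (SE), edgeR adjusted p = 5.79e-14). The feedback inhibitor Smad7 rose by 0.37, a call lost without RasV12 replicate 1 (edgeR adjusted p = 0.0566). The BMP-induced genes Id1 (0.41) and Id3 (0.39) rose in every alternative. Of the ligands, Inhbb (0.52) and Tgfb1 (0.35) rose and the activin antagonist Fst fell by 0.31.

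Extracellular and invasion genes included several large differences from NS cells. Adam8, a membrane metalloprotease, had 21.8 and 20.9 CPM in RasV12 knockdown cells, against 6.11 and 6.81 CPM in DMSO knockdown cells (log2 change 1.72 ± 0.12 (SE), edgeR adjusted p = 7.02e-12). In NS cells it fell (-1.25), and the difference of responses was 2.97 ± 0.28 (SE), edgeR adjusted p = 3.98e-09. Loxl4, a lysyl oxidase that crosslinks collagen, had 221 and 212 CPM in RasV12 knockdown cells, against 106 and 109 CPM in DMSO knockdown cells (log2 change 1.01 ± 0.04 (SE), edgeR adjusted p = 5.30e-16). Itga5, the fibronectin receptor subunit, had 47.1 and 43.9 CPM in RasV12 knockdown cells, against 26.1 and 23.5 CPM in DMSO knockdown cells (log2 change 0.88 ± 0.07 (SE), edgeR adjusted p = 2.41e-10). The RasV12 libraries were the higher ones in all 3. Of 14 proteases and inhibitors tested, 7 rose and 1 fell (Timp3, by 0.16), beside 19.5% and 16.6% of all tested genes. The lower count was 2 with library totals alone. The urokinase receptor Plaur had 18.4 and 20.8 CPM in RasV12 knockdown cells, against 7.63 and 11.5 CPM in DMSO knockdown cells (log2 change 1.02 ± 0.14 (SE), edgeR adjusted p = 3.40e-06).

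Developmental pathways gave mixed calls. Of 16 Wnt genes tested, 7 rose and 5 fell (3 in DESeq2), beside 19.5% and 16.6% of all tested genes. Wnt4 had 101 and 104 CPM in RasV12 knockdown cells, against 237 and 217 CPM in DMSO knockdown cells (log2 change -1.15 ± 0.04 (SE), edgeR adjusted p = 1.01e-16). Wnt7a had 73.98 and 79.4 CPM in RasV12 knockdown cells, against 42.1 and 46.7 CPM in DMSO knockdown cells (log2 change 0.78 ± 0.06 (SE), edgeR adjusted p = 1.82e-10), where it fell in NS cells (-1.10), a difference of 1.89 ± 0.14 (SE), edgeR adjusted p = 5.18e-11. Of 11 Notch genes tested, 3 fell, beside 16.6% of all tested genes, and none rose: the ligands Jag1 (-0.41) and Dll1 (-0.35) and the modifier Lfng (-0.65). Of 11 Hedgehog genes, the pathway that drives basal cell carcinoma, 4 rose and 4 fell, beside 19.5% and 16.6% of all tested genes. Ccnd1 was among those that rose (0.69). Ptch1 rose too, with log2 changes of 0.31 to 0.49 over the 16 alternatives. The lower ones were Smo, which fell by 0.29, Foxm1, Gli1 and Mycn, and the count was 2 in DESeq2 and without RasV12 replicate 1 or DMSO replicate 2. Gli1 had 0.521 and 0.781 CPM in RasV12 knockdown cells, against 1.37 and 1.55 CPM in DMSO knockdown cells, and its call was also lost without RasV12 replicate 2 or DMSO replicate 1 (edgeR adjusted p = 0.0514 and 0.0671).

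Set against the response of NS cells, with which no library is shared, 827 genes rose in both, 33.8% of those higher in knockdown cells and 31.6% of those higher in NS cells, beside 20.8% of all tested genes higher in NS cells and 19.5% higher in knockdown cells. A further 549 fell in both, 26.3% of those lower in knockdown cells and 20.6% of those lower in NS cells, beside 21.3% of all tested genes lower in NS cells and 16.6% lower in knockdown cells. Of the genes lower in knockdown cells, 25.0% were higher in NS cells, a share near that of the genes lower in both. The responses were called in opposite directions for 1056 genes, each with a called difference. Of these, 534 were higher in knockdown and lower in NS cells and 522 were lower in knockdown and higher in NS cells. The 534 were 21.8% of the genes higher in knockdown cells, near the 21.3% of all tested genes lower in NS cells. The 522 were 25.0% of those lower in knockdown cells, beside 20.8% of all tested genes higher in NS cells. The difference itself passed the test for 4791 genes (38.2%), with 2530 higher responses in knockdown cells (20.2%) and 2261 lower ones (18%). Among genes with opposite calls, Foxq1, a forkhead factor, had 36.5 and 34.5 CPM in RasV12 knockdown cells, against 18.02 and 12.1 CPM in DMSO knockdown cells. It had 34.3 and 33.97 CPM in RasV12 NS cells, against 94.3 and 86.6 CPM in DMSO NS cells, so that it rose in knockdown and fell in NS cells, and the responses differed by 2.66 ± 0.16 (SE), edgeR adjusted p = 1.01e-07. Ndrg4 had 57.9 and 52.96 CPM in RasV12 knockdown cells, against 19.01 and 20.5 CPM in DMSO knockdown cells. It had 63.7 and 64.9 CPM in RasV12 NS cells, against 116 and 111 CPM in DMSO NS cells, a difference of responses of 2.31 ± 0.09 (SE), edgeR adjusted p = 1.31e-16.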

How the data were processed

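RNA of ASZ001 cells was sequenced in 8 libraries, 2 in each of 4 groups. The authors deposited expected counts per gene, not normalized, made with TopHat and HOMER on mm9, per the submitters' processing notes, which also name DESeq2. Versions, the strand setting and the handling of multi-mapped reads were not given in these notes, so reads of near-identical or overlapping genes cannot be told apart. All values (100%) were multiples of 0.5. The design had assumed whole counts, and the values were rounded for the tests. Of 24909 entries, 2 with repeated symbols were dropped (the one with fewer counts). No column was left unused.

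Here edgeR 4.0.16 in R 4.3.3 was applied: filterByExpr kept 12538 genes (99.96% of counts), TMM factors, 1 model of 4 group means over all 8 libraries (4 residual degrees of freedom, biological coefficient of variation 3.37%), robust quasi-likelihood F tests, two-sided, with Benjamini-Hochberg adjustment over all genes. Contrasts were RasV12 against DMSO in knockdown cells, the same in NS cells, and their difference. CPM use the TMM factors. The steps were tested on simulated data. Library totals were 12724604.5 to 16233379, which bounds counting error only. The 52 gene lists and the members were chosen with earlier results of these data known, and lists are described by counts and medians without a test. Genes named are the 12 largest rises and falls past the test with a mean of at least 5 CPM and no overlap, the 6 largest differences each way, up to 3 members of smallest p per list, Tgfbr1, Hras, Nras and Esr1, without items withheld, which are not reported here. Other genes named were chosen after their values were seen. Alternatives were DESeq2 1.42.0, other scalings and filters, Rn45s left out, a replicate block, the 4 knockdown libraries alone, and each library left out.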

Additional observations from a re-analysis of the deposited data

Results flagged for a closer look

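For 4791 genes the response to RasV12 in knockdown cells differed from that in NS cells by the interaction test, which is what marked the following results. The responses of 6 genes were higher in knockdown cells. The difference of log2 responses, knockdown minus NS, was 2.97 for Adam8, 2.84 for Nipal1, 2.68 for Krt16, 2.66 for Foxq1, 2.63 for Pgm5 and 2.54 for Tubb3. Adam8, Foxq1 and Pgm5 rose in knockdown cells and fell in NS cells, Nipal1 and Krt16 fell in NS cells and did not pass the test in knockdown cells, and Tubb3 fell in both. The rise of Pgm5 in knockdown cells (0.78) was not called without RasV12 replicate 1 or DMSO replicate 2 of the knockdown cells (edgeR adjusted p = 0.44 and 0.224), and its log2 change was 0.34 without RasV12 replicate 1. The responses of 6 others were lower in knockdown cells, although all 6 rose in both. The difference was -3.48 for Spry4, -3.11 for Fxyd5, -2.99 for Etv5, -2.72 for Etv4, -2.03 for Tcf7 and -1.95 for Dusp6. Spry4 and Fxyd5 had at most 0.249 CPM in the DMSO NS libraries, so their fold in NS cells rests on few counts. The calls of these 12 differences were kept in every alternative run.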

How the results depend on the processing

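DESeq2 called fewer genes than edgeR. It gave 1581 higher, 1047 lower and 48 lower by at least 2-fold in knockdown cells, against 2446, 2085 and 86, and for the difference from NS cells 1618 higher, 1210 lower and 56 lower by at least 2-fold, against 2530, 2261 and 95. No other alternative moved these counts, or those at least 2-fold higher, by over 1.5 times, and no called result changed sign. Leaving out 1 library left 3306 to 4670 genes past the test in knockdown cells. The counts of the MAPK list (13 to 17 higher), the inflammatory list (14 to 19 higher), the hypoxia list (20 to 23 higher), the replication list (17 to 20 lower) and the mitosis list (10 to 15 lower) kept their direction in all 16 alternatives. With the replicate number as a block 4556 genes passed the test in knockdown cells, 4482 of them among the 4531. The labels give only numbers, and deviations of same-numbered libraries correlated at 0.07 between the knockdown groups and at -0.05 to 0.03 between the others, so the samples were not treated as paired. Of the genes under 1 CPM 9.89% passed the test, against 40.0% of those at 20 to 100 CPM, and depth was not varied.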

Other observations

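Other gene groups changed in knockdown cells with RasV12. The metallothionein genes Mt1 and Mt2, whose products bind zinc and copper, rose. Mt1 had 599 and 582 CPM in RasV12 knockdown cells, against 396 and 369.8 CPM in DMSO knockdown cells, and Mt2 had 669.8 and 634 CPM in RasV12 knockdown cells, against 481 and 449.6 CPM in DMSO knockdown cells. The zinc exporter Slc30a1 fell to 36.6 and 34.6 CPM in RasV12 knockdown cells, against 56.04 and 55.8 CPM in DMSO knockdown cells. Chaperones split, with 11 of 18 higher and 4 lower, beside 19.5% and 16.6% of all tested genes. The small heat shock gene Hspb1 rose by 0.47 and the unfolded protein response factor Xbp1 by 0.53, while the mitochondrial chaperone Hspd1 fell by 0.36 on the log2 scale.

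The oncofetal chromatin protein Hmga2 had 119 and 119.7 CPM in RasV12 knockdown cells, against 64.6 and 71.4 CPM in DMSO knockdown cells (log2 change 0.81 ± 0.06 (SE), edgeR adjusted p = 7.64e-12). It had 6.94 and 5.56 CPM in RasV12 NS cells, against 1.62 and 1.14 CPM in DMSO NS cells, a larger response (difference -1.35 ± 0.24 (SE), edgeR adjusted p = 4.99e-05). Growth factor genes rose in 12 of 19 tested. Fgfr1 had 170.0 and 174 CPM in RasV12 knockdown cells, against 102 and 101 CPM in DMSO knockdown cells and Fgfr2 had 173 and 158 CPM in RasV12 knockdown cells, against 208 and 204 CPM in DMSO knockdown cells, so that 2 receptors of the same family moved in opposite directions. Igfbp7, a secreted binding protein, had 790.3 and 788 CPM in RasV12 knockdown cells, against 468 and 474 CPM in DMSO knockdown cells. The lysosomal glycoproteins Cd68 and Gpnmb had 15.5 and 14.8 CPM in RasV12 knockdown cells, against 4.50 and 4.92 CPM in DMSO knockdown cells, for Cd68, and 16.1 and 16.2 CPM in RasV12 knockdown cells, against 5.19 and 5.34 CPM in DMSO knockdown cells, for Gpnmb, while Ptprc, Lyz2 and Adgre1 had no counts in these 4 libraries. Cd68 had 7.79 and 7.32 CPM in RasV12 NS cells, against 7.52 and 8.74 CPM in DMSO NS cells, and its responses differed by 1.79 ± 0.20 (SE), edgeR adjusted p = 5.29e-08.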
